A study of Arabidopsis thaliana with 24 samples.

Results

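The plastid genome of Arabidopsis encodes parts of its own expression machinery besides photosynthesis proteins, and 24 of the 22746 probe sets on the arrays report these genes. The 24 probe sets were taken by annotation alone: each points to exactly 1 protein-coding plastid gene whose symbol does not begin with psa, psb, pet, ndh or atp and is not rbcL, ycf3 or ycf4. They comprise 8 genes of the small ribosomal subunit (rps2, rps3, rps4, rps14, rps15, rps16, rps18 and rps19) and 7 of the large subunit (rpl14, rpl16, rpl20, rpl22, rpl32, rpl33 and rpl36). The others are the 4 genes of the plastid-encoded RNA polymerase (rpoA, rpoB, rpoC1 and rpoC2) and 5 genes of other function (matK, accD, cemA, clpP and ccsA). A further 7 plastid probe sets outside photosynthesis point to several gene copies and were left out.

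Plastids translate their messages on a bacterial-type ribosome whose proteins are encoded partly in the plastid and partly in the nucleus. Their genes are read by a bacterial-type polymerase, with a plastid-encoded core and nuclear sigma factors, and by nuclear-encoded phage-type polymerases, which read the rpoB, rpoC1 and rpoC2 genes among others. Leaf chloroplasts carry out photosynthesis and express this machinery strongly, while root plastids are non-green and serve other metabolism. The members outside the ribosome and polymerase act in splicing (matK, a maturase), fatty acid synthesis (accD, a subunit of acetyl-CoA carboxylase), protein breakdown (clpP, a subunit of the Clp protease), cytochrome c assembly (ccsA) and the chloroplast envelope (cemA).

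RNA came from roots and from rosette leaves of wild-type Columbia (Col-0) plants aged 29 days, and every plant had been watered with its treatment on days 0, 4 and 17. The treatments were nano-titania (TiO2) at 500 mg/L in KCl, KCl alone, nano-ceria (CeO2) at 500 mg/L in millipore water, and millipore water alone. The 4 treatments in 2 tissues made 8 groups of 3 arrays, 24 in all. The KCl solution is given as 0.1 mM in the sample descriptions and as 0.1 M in the treatment protocol, and TiO2 plants received it too. The labels call the replicates biological but do not say how many plants went into each or which leaf and root arrays share plants, so the p-values measure the spread between these arrays.

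Each probe set has a single log2 signal on an array, so a difference of 1 is a doubling, and array medians lay between 4.96 and 5.15. Arrays of the same group correlated at 0.873 to 0.990 across probe sets. On 6 arrays the lower quartile was above 3.7, a narrower spread than on the rest: root KCl replicates 1 and 3, root TiO2 replicate 2, root water replicate 1, leaf KCl replicate 2 and leaf CeO2 replicate 2. The tissue labels matched their markers: 7 of 7 leaf markers fell in roots of control plants, with a median difference of -6.07, and 4 of 4 root markers rose, with a median of 5.97. Standard labelling for these arrays primes on poly(A) tails, which most plastid messages lack in stable form, so a plastid signal here is not a direct measure of message amount.

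Root arrays gave lower signals than leaf arrays for nearly all of these genes. In particle plants (TiO2 and CeO2 weighted equally), 23 of 24 members fell in roots relative to leaves, where 13.6% of all probe sets fell, with a median difference of -2.50 against 0.07 over all probe sets. In control plants (KCl and water weighted equally), 23 of 24 fell, against 15.4% of all probe sets, with a median of -2.65 against 0.10. All 8 rps, all 7 rpl and all 5 other members fell in both comparisons, and 3 of the 4 rpo genes did; these are limma tests adjusted by Benjamini-Hochberg over all probe sets, with a threshold of 0.05. The 6 root and the 6 leaf arrays did not overlap for 12 of 24 members in particle plants (7.4% of all probe sets) and for 14 of 24 in control plants (8.88%). In whole organs, fewer plastids per cell, fewer plastid-rich cells, less message per plastid and fewer messages with poly(A) tails cannot be told apart.

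The envelope gene cemA had the most negative difference of the 24 in both comparisons. In particle plants its lowest, median and highest signals were 5.28, 5.63 and 6.71 in roots, against 9.75, 10.21 and 10.81 in leaves. In control plants they were 4.12, 5.95 and 6.94 in roots, against 9.12, 10.38 and 11.08 in leaves. Root and leaf arrays of cemA were separate in each case, by -4.51 ± 0.28 in particle plants (SE, limma adjusted p = 7.21e-10) and by -4.49 ± 0.28 in control plants (adjusted p = 7.47e-10).

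Among the ribosomal genes, rps4, a small-subunit protein that binds early in assembly of the bacterial ribosome, was next in particle plants. Its lowest, median and highest signals there were 7.84, 9.48 and 10.41 in roots, against 12.28, 12.83 and 13.14 in leaves, without overlap. It differed by -3.41 ± 0.39 in particle plants (limma adjusted p = 1.58e-06) and by -3.45 ± 0.39 in control plants (adjusted p = 1.27e-06). The large-subunit gene rpl16 followed in particle plants at -3.31 ± 0.53 (limma adjusted p = 8.55e-05), with root arrays up to 8.16 and leaf arrays down to 7.60. In control plants the large-subunit gene rpl33 ran at 3.54, 6.85 and 7.90 in roots, against 9.02, 10.30 and 11.31 in leaves (lowest, median and highest). Its difference there was -3.88 ± 0.50 (limma adjusted p = 6.23e-06), beside -3.08 ± 0.50 in particle plants (adjusted p = 9.42e-05).

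The polymerase genes did not run together. rpoC1 (the beta-prime subunit) fell in roots, with a difference of -2.87 ± 0.28 in particle plants (limma adjusted p = 2.78e-07) and of -2.55 ± 0.28 in control plants (adjusted p = 1.14e-06). rpoA (the alpha subunit) fell too, at -1.72 ± 0.35 in particle plants (limma adjusted p = 0.000965) and -1.96 ± 0.35 in control plants (adjusted p = 0.000237). rpoC2 (the beta-double-prime subunit) had smaller differences of -1.08 ± 0.36 in particle plants (limma adjusted p = 0.0277) and -1.01 ± 0.36 in control plants (adjusted p = 0.0344). Its call was lost after a second quantile normalization, at an adjusted p of 0.0596 in particle plants and 0.120 in control plants. In particle plants it was also lost without root TiO2 replicate 3, root CeO2 replicate 1, leaf TiO2 replicate 2 or 3, or leaf CeO2 replicate 2, left out singly (adjusted p = 0.0562 to 0.0795). In control plants it was lost without root KCl replicate 1 or 2, root water replicate 2, leaf KCl replicate 2 or 3, or leaf water replicate 1 (adjusted p = 0.0765 to 0.0965). rpoB (the beta subunit) did not pass, at -0.19 ± 0.12 in particle plants (limma adjusted p = 0.274) and 0.17 ± 0.12 in control plants (adjusted p = 0.299).

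The rpoB probe set was dim everywhere, between 3.12 and 3.77 on root arrays and between 3.23 and 3.80 on leaf arrays. It was below its array's lower quartile on 11 of 12 root arrays and 9 of 12 leaf arrays, so the probe set gives little room to see a difference. Its 3 genome neighbours, rps2, rpoC2 and rpoC1, were below that quartile on no array. Among the members, the smallest differences after rpoB and rpoC2 were those of rps14 in particle plants, at -1.18 ± 0.30 (limma adjusted p = 0.00481), and of rps19 in control plants, at -1.36 ± 0.37 (adjusted p = 0.0075). rps14 was itself below the lower quartile on 4 of 12 root arrays. rps19 kept a signal of 7.85 to 10.66 on the control root arrays, against 9.57 to 11.29 on the control leaf arrays, so the arrays overlapped, and without the 6 narrow arrays its difference was -0.98 (limma adjusted p = 0.176).

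**Figure D1:**
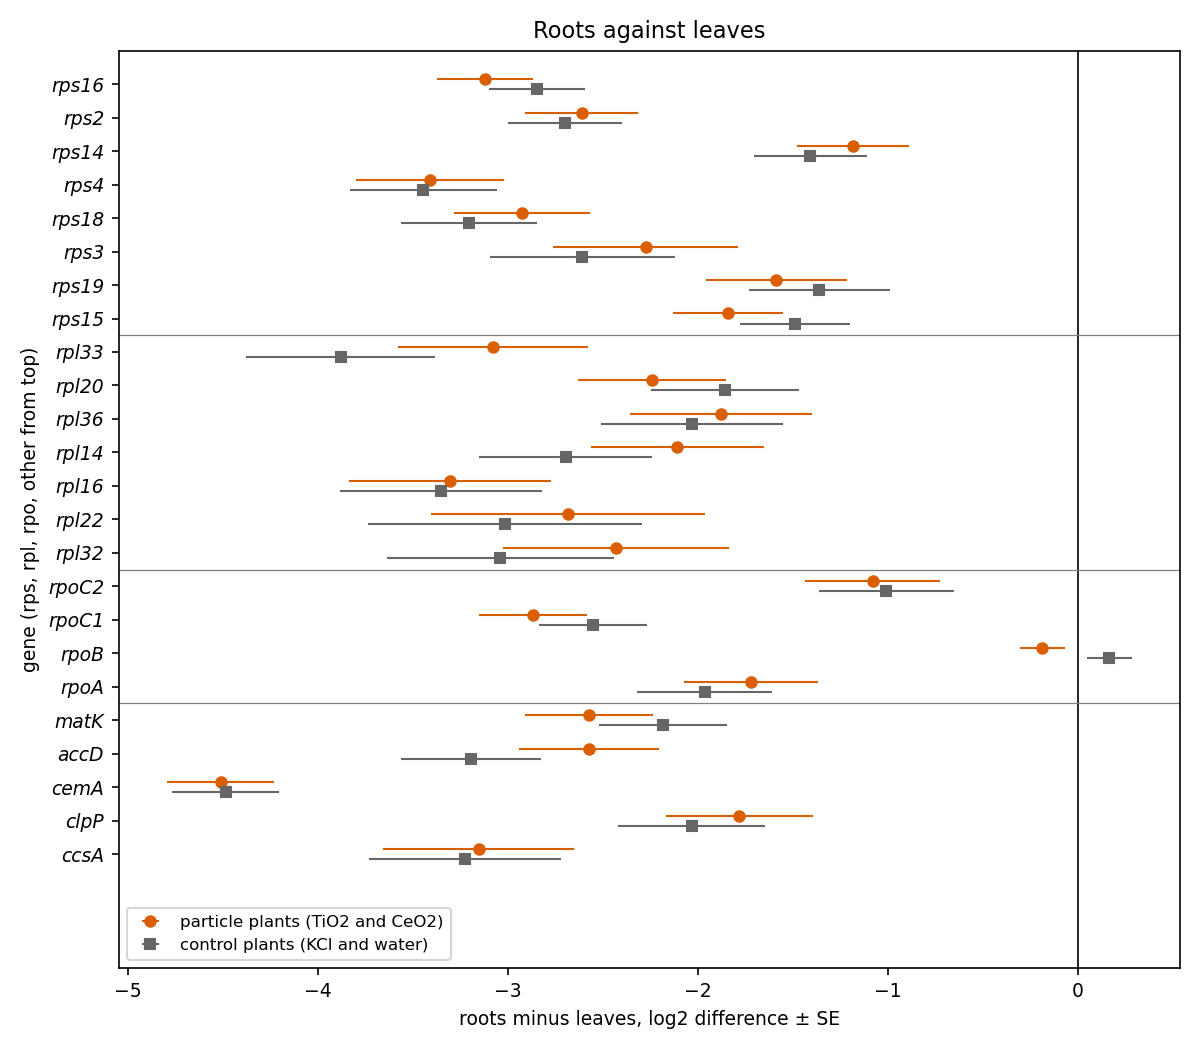
Roots minus leaves for each gene on the log2 scale (x axis, with SE), in particle plants (circles) and control plants (squares), 12 arrays each. All genes lie left of 0 in particle plants; in control plants rpoB alone lies right of 0, at 0.17, and cemA is farthest left in both.

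Other lists show where these genes stand. Of the 45 probe sets for plastid photosynthesis and NDH genes, 43 fell in roots of particle plants (median -2.95) and 42 in roots of control plants (median -3.11). Nuclear genes for plastid ribosomal proteins, of which 10 of 40 on the list had a named probe set, all fell, with medians of -3.04 in particle plants and -3.34 in control plants. Of 18 mitochondrion-encoded probe sets, 4 rose and 1 fell in particle plants (median 0.51), where 15.5% of all probe sets rose, and 8 rose and 1 fell in control plants (median 0.63), where 19.2% of all rose. The list for phage-type polymerases held 1 named probe set of 3 genes, AT5G15700, which did not pass in either comparison (0.13 ± 0.14, limma adjusted p = 0.565, in particle plants and 0.14 ± 0.14, adjusted p = 0.462, in control plants). Its group means were low throughout, from 3.91 in water leaves to 4.34 in TiO2 roots, so it gives little room to see a difference. Of the sigma factor genes 0 of 6, and of the polymerase-associated genes 0 of 13, had a named probe set here.

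Within roots, all 24 members had the same treatment highest but did not share the order below it, and none passed. The median over the 24 members on each array was 7.74, 6.41 and 6.55 with TiO2, against 7.55, 7.83 and 8.18 with KCl. It was 8.21, 5.99 and 6.17 with CeO2, against 6.23, 4.87 and 6.25 with water. KCl roots held the highest group mean for all 24 members, and water roots the lowest for 19, CeO2 roots for 3 and TiO2 roots for 2. The SD of these medians between arrays was 0.31 with KCl, and larger in the other groups, at 0.73 with TiO2, 1.24 with CeO2 and 0.79 with water. Their means were close for TiO2 and CeO2, at 6.90 and 6.79. The members also rose and fell together on single arrays, so their shared directions are not independent of one another. On water replicate 2, 1 of 24 stood above its group mean (42.6% of all probe sets). On TiO2 replicate 1 it was 21 of 24 (43.1%), and on CeO2 replicate 1 it was 19 of 24 (40.7%).

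**Figure D2:**
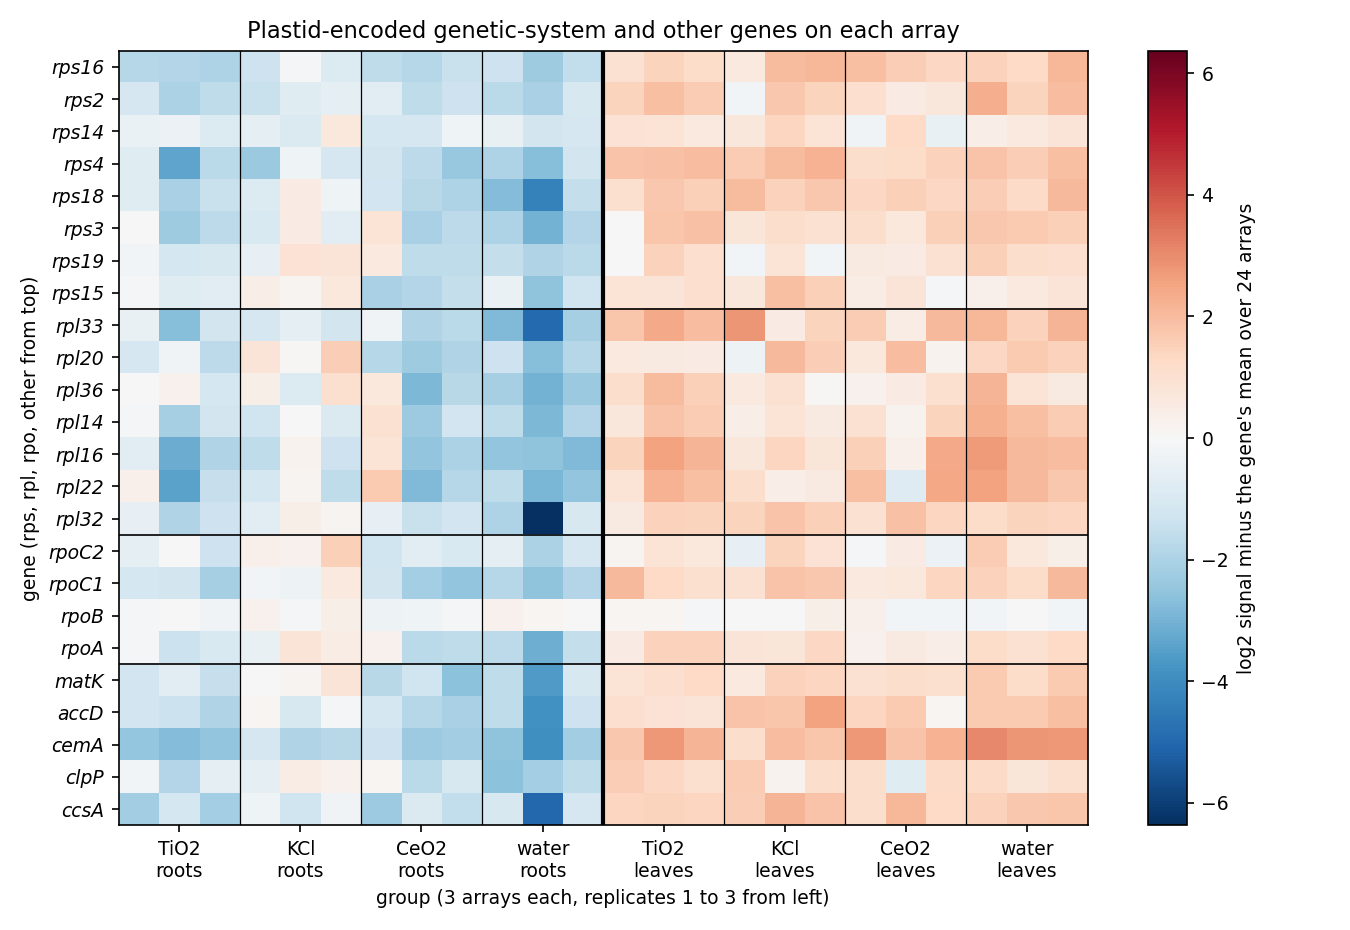
Log2 signal of each gene (y axis, grouped by role) on each of 24 arrays (x axis, 3 per group), as its difference from the gene's mean over all arrays; red is higher and blue lower. Root arrays are blue for most genes, palest with KCl; the second water array is the darkest for 21 of 24 genes among water roots, and rpoB is near white throughout.

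KCl roots differed from water roots in the same direction for all 24 members, where 53.5% of all probe sets were higher. The median difference was 1.92 (range 0.05 to 3.08), against 0.03 over all probe sets. With limma, 0 of 24 passed (0.119% of all probe sets passed), while 16 of 24 were higher at an unadjusted p under 0.05 (6.18% of all) and 18 of 24 had KCl arrays wholly above the water arrays (8.21%). The medians were 1.40 for rps, 2.36 for rpl, 2.02 for rpo and 1.94 for the others. Without water replicate 2, the lowest water array for 21 members, the median was 1.50 and all 24 stayed higher; without the 6 narrow arrays, which leaves 1 KCl root array, it was 2.22 and 23 were higher.

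rpl20, a large-subunit protein, came nearest to passing. It read 8.49, 7.75 and 9.24 in KCl roots, against 6.36, 4.94 and 5.87 in water roots, a difference of 2.77 ± 0.48 (limma adjusted p = 0.0572). rpoC1 read 7.40, 7.29 and 8.21 in KCl roots, against 5.80, 5.04 and 5.73 in water roots, a difference of 2.11 ± 0.42 (limma adjusted p = 0.0661). For both genes every KCl array lay above every water array. The largest difference was that of rpl32, a large-subunit protein, at 3.08 ± 1.10 (limma adjusted p = 0.289). Its signals were 9.51, 10.56 and 10.35 in KCl roots, against 8.21, 3.82 and 9.15 in water roots. Water replicate 2 stood far below the other water arrays for this gene. ccsA was low on the same array, with 10.86, 9.87 and 10.88 in KCl roots, against 10.09, 6.09 and 10.04 in water roots. Its KCl and water arrays overlapped.

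TiO2 roots lay below KCl roots for all 24 members, with a median difference of -1.0 (range -1.80 to -0.27), against -0.06 over all probe sets, of which 43.4% were above 0. None passed by limma (0 of 24; 0.347% of all probe sets did), while 6 of 24 were lower at an unadjusted p under 0.05 (6.79%), and 8 of 24 had TiO2 arrays wholly below the KCl arrays (8.53%). The 6 were rpl20, rpoC1, rps16, rpoC2, matK and cemA. This comparison and the one of KCl with water share the 3 KCl arrays, so the opposite signs of their differences are not independent of each other.

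rpl20 read 6.62, 7.43 and 6.03 in TiO2 roots, all below the KCl values above, a difference of -1.80 ± 0.48 (limma adjusted p = 0.142). rpoC1 read 6.50, 6.41 and 5.50 in TiO2 roots, a difference of -1.50 ± 0.42 from KCl roots (adjusted p = 0.158). rps16, a small-subunit protein gene, read 3.86, 3.82 and 3.71 in TiO2 roots, against 4.37, 5.55 and 4.81 in KCl roots (-1.11 ± 0.32, limma adjusted p = 0.166). The TiO2 arrays of rps16 were low and close together, and its CeO2 and water arrays ran at 3.39 to 4.35. accD read 6.54, 6.41 and 5.85 in TiO2 roots, against 7.88, 6.75 and 7.69 in KCl roots (-1.17 ± 0.61, adjusted p = 0.489), again without overlap.

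CeO2 roots were above water roots for 21 of 24 members, where 44.4% of all probe sets were, with a median of 0.81 against -0.04 over all probe sets. The limma count of passing members was 0 of 24 (0.0176% of all passed), and rpl33 and clpP were higher at an unadjusted p under 0.05 (2 of 24; 3.82% of all). CeO2 arrays lay wholly above water arrays for rpl33 and rpl16 (2 of 24; 5.7%) and wholly below for rpoB (1 of 24; 7.29%). rpl33 read 8.27, 6.59 and 6.78 in CeO2 roots, against 5.66, 3.54 and 6.36 in water roots (2.02 ± 0.77, limma adjusted p = 0.649). clpP read 10.67, 8.82 and 9.52 in CeO2 roots, against 7.93, 8.37 and 8.92 in water roots (1.26 ± 0.55, adjusted p = 0.726), with overlap. Single arrays decided the size of this shift: the median was 0.28 without CeO2 replicate 1, with 19 of 24 higher, and 0.29 without water replicate 2, with 13 of 24 higher.

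The TiO2 effect (TiO2 minus KCl) was below the CeO2 effect (CeO2 minus water) in roots for 23 of 24 members, with a median difference of -1.77. It was below for 11944 of all 22746 probe sets, with a median of -0.03. By limma 0 of 24 passed (0.572% of all probe sets did), and 10 of 24 were lower at an unadjusted p under 0.05 (6.73%). cemA had the smallest p of these, at -1.92 ± 0.62 (limma adjusted p = 0.215). Its root signals were 5.54, 5.28 and 5.52 with TiO2, against 6.94, 6.09 and 6.26 with KCl. They were 6.71, 5.73 and 5.79 with CeO2, against 5.48, 4.12 and 5.82 with water.

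**Figure D3:**
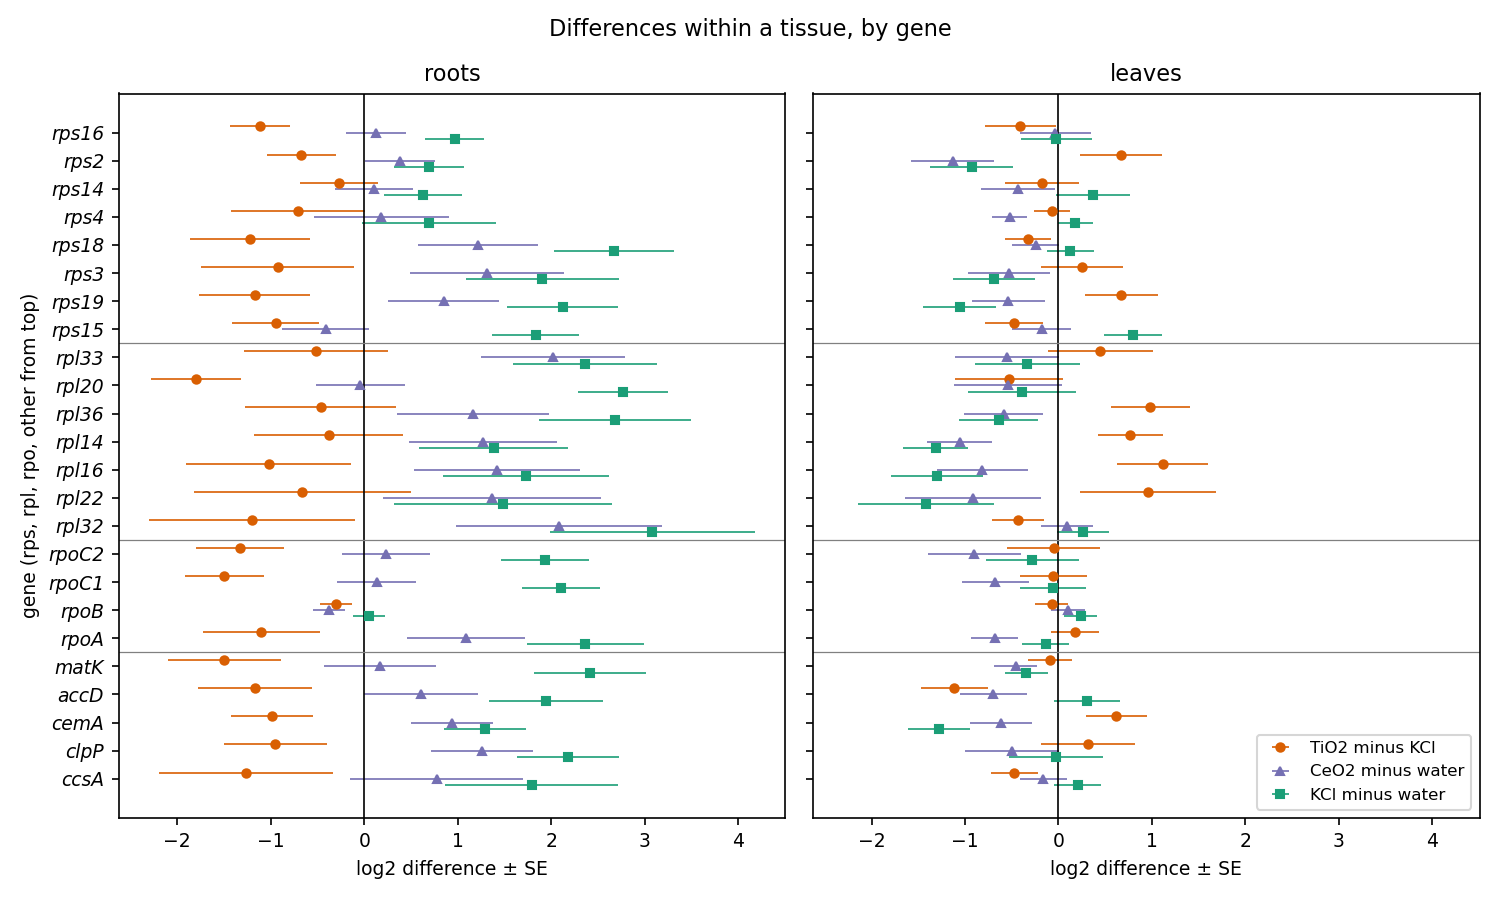
Log2 difference with SE (x axis) for each gene (y axis) in roots (left) and leaves (right): TiO2 minus KCl (circles), CeO2 minus water (triangles) and KCl minus water (squares), 3 arrays per group. In roots the squares lie right of 0 and the circles left of 0 for all 24 genes; in leaves most differences lie within 1 of 0.

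Values of other lists stand beside the root shifts. The plastid photosynthesis list had a median of -0.86 for TiO2 minus KCl, 0.27 for CeO2 minus water and 1.20 for KCl minus water, and 41 of its 45 probe sets were higher in KCl roots than in water roots. The mitochondrion-encoded list had medians of -1.71, 0.28 and 1.37 for these comparisons in the same order, with all 18 higher in KCl roots than in water roots. The nuclear genes for plastid ribosomal proteins had medians of 0.52, 0.48 and -0.32. Their median had the sign of the members' median for CeO2 minus water, where 9 of 10 were above 0, and the opposite sign for TiO2 minus KCl (7 of 10 above 0) and for KCl minus water (3 of 10). None of these 3 lists had a probe set that passed in the comparisons of treatments in roots.

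Tissue markers in roots gave these values. For KCl minus water, 3 of 7 leaf markers were higher, with a median of -0.19, and their array medians ran at 4.54 to 7.14 in KCl roots, against 5.34 to 7.06 in water roots. For TiO2 minus KCl, 5 of 7 were higher, with a median of 0.54 and array medians of 6.03 to 6.82 in TiO2 roots. For CeO2 minus water, 6 of 7 were higher, with a median of 0.78 and array medians of 5.96 to 7.95 in CeO2 roots. On leaf arrays of any treatment the medians were 11.40 to 13.35, far above all root arrays. These leaf markers were LHCB4.1, LHCB4.2, LHCB4.3, RCA, PSAN, PIFI and PRK. The root markers were PYK10, JAL33, JAL22 and JAL34 alone. Whether either list follows the cell types of its tissue or responds to the treatments themselves was not tested. The medians of the root markers had the sign of the members' medians in both particle comparisons. For TiO2 minus KCl, 0 of 4 were higher (median -0.87), with array medians of 9.39 to 10.59 in TiO2 roots, against 10.04 to 11.31 in KCl roots. For CeO2 minus water, 4 of 4 were higher (median 0.74), with array medians of 11.36 to 11.42 in CeO2 roots, against 10.23 to 11.23 in water roots. For the TiO2 effect minus the CeO2 effect, 0 of 4 root markers were above 0, with a median of -1.75 beside -1.77 for the members. For KCl minus water, 1 of 4 was higher (median -0.31), unlike the members. The part of green tissue or of the root cell types in these shifts was not tested.

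**Figure D4:**
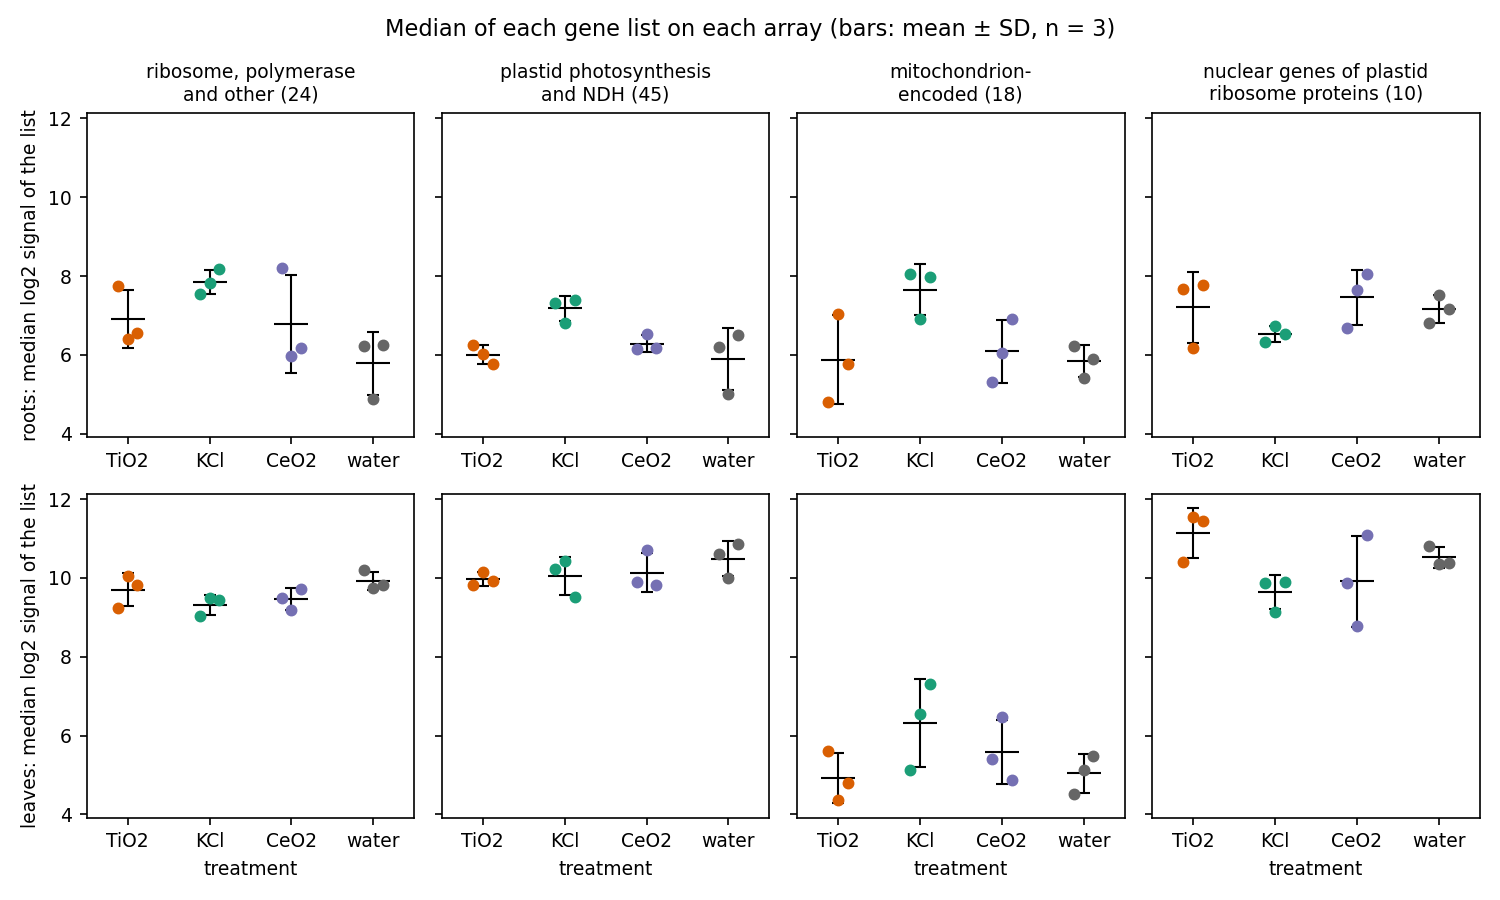
Median log2 signal of each gene list on each array (y axis) by treatment (x axis), in roots (top) and leaves (bottom); points are arrays, bars the mean and SD of 3. The 24 genes, the plastid photosynthesis list and the mitochondrial list have their highest root mean with KCl, at 7.85, 7.18 and 7.65, while the nuclear list has its lowest there, at 6.53.

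In leaves the median differences were smaller than in roots. Members ran both ways for TiO2 against KCl and for KCl against water, while 22 of 24 lay below water with CeO2. The array medians over the 24 members were 9.24, 10.05 and 9.82 with TiO2, against 9.02, 9.48 and 9.44 with KCl. They were 9.50, 9.18 and 9.73 with CeO2, against 10.19, 9.75 and 9.82 with water. Water leaves held the highest group mean for 12 members, KCl leaves for 8, TiO2 leaves for 4 and CeO2 leaves for none, and CeO2 leaves held the lowest for 11. Every CeO2 median lay below every water median, the nearest being 9.73 with CeO2 and 9.75 with water.

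TiO2 leaves were above KCl leaves for 11 of 24 members, where 42.3% of all probe sets were, with a median of -0.05 that ran from -0.16 to 0.09 as single arrays were left out. No member passed by limma (0 of 24; 0.022% of all probe sets did). At an unadjusted p under 0.05, rpl16 and rpl36 were higher (2 of 24; 8.44% of all) and accD was lower (1 of 24; 7.05%). TiO2 and KCl arrays did not overlap for these 3 and for ccsA, which gave 2 of 24 higher (11.1% of all) and 2 of 24 lower (14%). accD, the carboxylase subunit, read 8.85, 8.69 and 8.57 in TiO2 leaves, against 9.60, 9.54 and 10.32 in KCl leaves, a difference of -1.11 ± 0.36 (limma adjusted p = 0.217). rpl16 read 8.72, 9.83 and 9.45 in TiO2 leaves, against 7.98, 8.64 and 8.03 in KCl leaves (1.11 ± 0.49, adjusted p = 0.313). The 10 nuclear genes for plastid ribosomal proteins lay above 0 without exception (median 1.42), 7 of them at an unadjusted p under 0.05, though none passed. Leaf markers were above 0 for 6 of 7 (median 0.54) and root markers for 3 of 4 (median 0.32). Of the plastid photosynthesis list 16 of 45 were above 0 (median -0.19), and of the mitochondrion-encoded list 1 of 18 (median -1.38). The part of the tissue markers was not tested.

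CeO2 leaves were below water leaves for 22 of 24 members, rpl32 and rpoB being the others, where 53.7% of all probe sets were higher. The median was -0.54, against 0.02 over all probe sets. By limma 0 of 24 passed, as for all probe sets (0%); rps4, rpl14, rpoA and rps2 were lower at an unadjusted p under 0.05 (4 of 24; 1.32% of all), and 8 of 24 had CeO2 arrays wholly below the water arrays (2.33%). rpl14, a large-subunit protein, read 9.29, 8.58 and 9.76 in CeO2 leaves, against 10.58, 10.25 and 9.97 in water leaves (-1.06 ± 0.35, limma adjusted p = 1). Medians of other lists were -0.37 for plastid photosynthesis genes and -0.63 for nuclear genes of plastid ribosomal proteins, and 0.48 for mitochondrion-encoded genes. Tissue markers moved beside them: 0 of 7 leaf markers were above 0 (median -0.37), 2 of them with CeO2 arrays wholly below the water arrays. Of the root markers 4 of 4 were above 0 (median 0.49), but at low signals. The root marker medians were 3.89, 5.22 and 5.16 on CeO2 leaf arrays, against 3.90, 3.97 and 4.19 on water leaf arrays, with overlap. The part of either marker list in the shift of the members was not tested.

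KCl leaves were below water leaves for 16 of 24 members, where 56.3% of all probe sets were higher, with a median of -0.21 against 0.04 over all probe sets. By limma 0 of 24 passed (0.189% of all probe sets did). At an unadjusted p under 0.05, rps15 was higher (1 of 24; 6.12% of all) and cemA, rpl14, rps19 and rpl16 were lower (4 of 24; 6.12%). KCl arrays lay wholly below water arrays for 6 of 24 members (8.25%) and wholly above for rpoB (1 of 24; 8.86%). cemA read 9.12, 9.97 and 9.81 in KCl leaves, against 11.08, 10.86 and 10.79 in water leaves, a difference of -1.28 ± 0.33 (limma adjusted p = 0.153). rpl14 read 8.75, 9.22 and 8.90 in KCl leaves, also below all water values (-1.31 ± 0.35, adjusted p = 0.164). The median was -0.04 without KCl replicate 1, with 11 of 24 higher, and -0.12 without water replicate 1. Here 1 of 7 leaf markers (median -0.37) and 4 of 4 root markers (median 0.57) were above 0, and their part was not tested. The root marker medians were low and overlapped, at 3.96, 4.40 and 5.92 on KCl leaf arrays, against 3.90 to 4.19 on water leaf arrays.

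**Figure D5:**
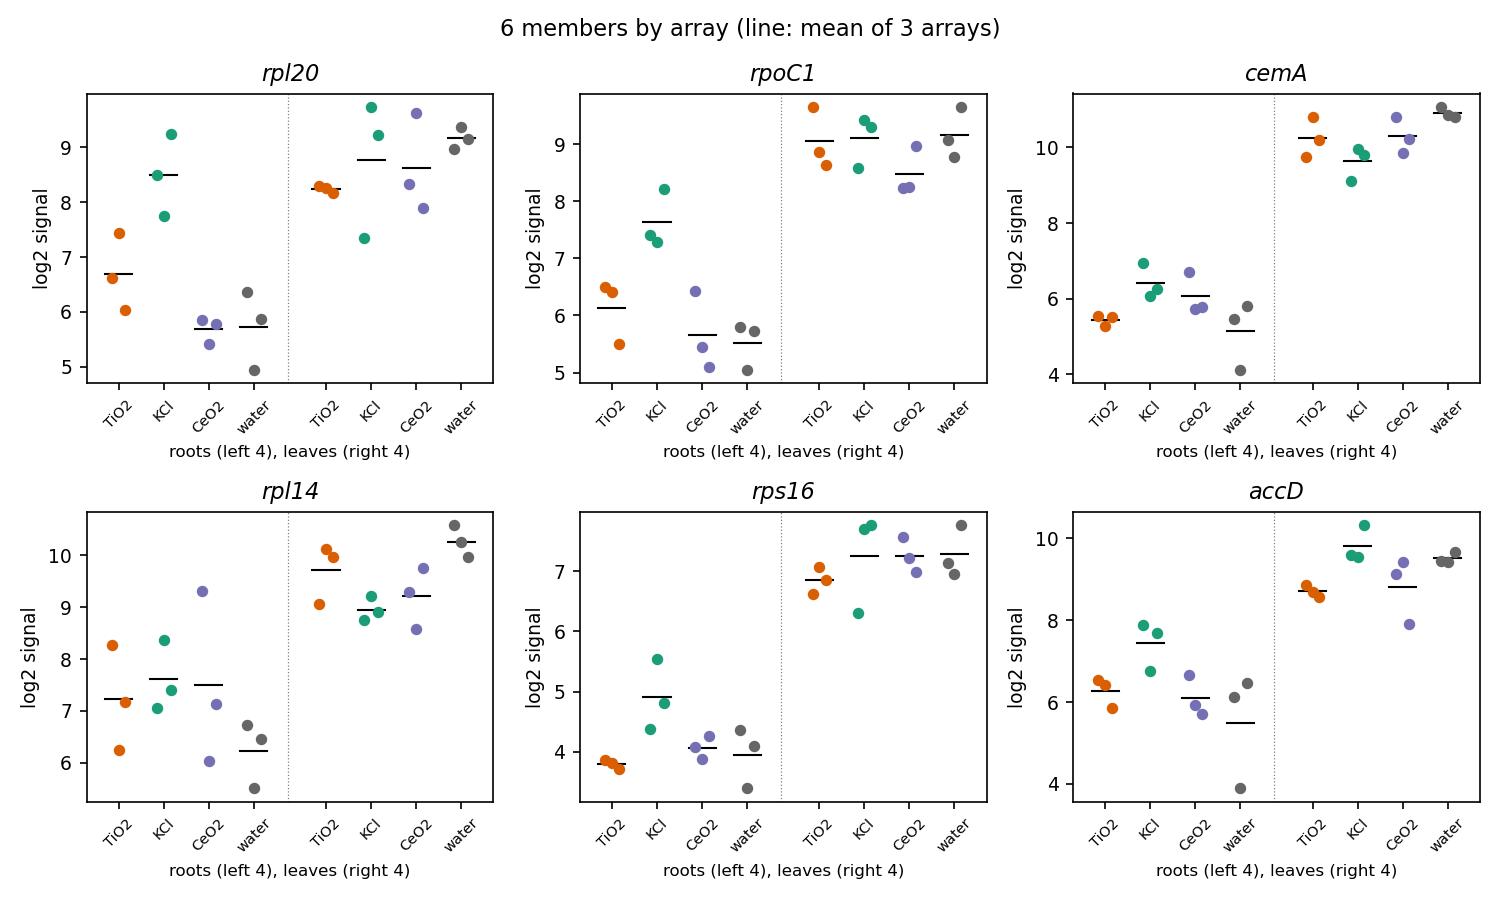
Log2 signal (y axis) of 6 genes on each array, by treatment in roots (left of the dotted line) and leaves (right); lines are means of 3 arrays. Among root groups KCl is highest for rpl20 and rpoC1, at means of 8.49 and 7.63, and among leaf groups TiO2 is lowest for accD, at 8.70.

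Neighbouring genes were then set side by side. Taking members as neighbours unless a photosynthesis or NDH gene stands between them in the RefSeq table of TAIR10.1, 19 members form 5 runs and 5 stand alone. Strand was not used, so a run need not be 1 transcription unit. The longest run has 7 members, rpoA, rpl36, rpl14, rpl16, rps3, rpl22 and rps19, which belong to one transcription unit in land plants, so they are not independent measurements. In KCl against water leaves all 7 were below 0 (median -1.06, range -1.42 to -0.14), and they include 5 of the 6 members whose arrays did not overlap, with cemA, which stands alone, as the sixth. In TiO2 against KCl leaves all 7 were above 0 (median 0.77, range 0.18 to 1.11). In roots this run was above 0 for all 7 in KCl against water (median 1.91) and in CeO2 against water (median 1.27).

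The same run also varied together between arrays of a group. CeO2 root replicate 1 was the highest of its group for all 7, with a run median of 9.47, beside 6.04 and 7.13 on the other CeO2 root arrays. rpl22, a large-subunit protein, showed it most plainly, with 9.47, 4.99 and 5.99 on the CeO2 root arrays. In leaves, TiO2 replicate 1 was the lowest of its group for all 7, with a run median of 9.07, beside 10.13 and 9.98. The run of rpl33, rps18, rpl20 and clpP was likewise highest on CeO2 root replicate 1 for all 4, at a median of 7.73, beside 6.60 and 6.61. For the run of rps2, rpoC2, rpoC1 and rpoB, KCl root replicate 3 was the highest of its group for all 4, at a median of 7.13, beside 6.30 and 6.56, while CeO2 root replicate 1 was highest for 2 of 4 and lowest for 2 of 4.

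Spread between arrays of a group was larger in roots. The median pooled SD over the members was 0.82 in roots, against 0.49 in leaves, and 19 of 24 members had the larger SD in roots; over all probe sets the medians were 0.44 and 0.36. Tests of the tissue difference in each effect bear on whether roots and leaves answered unlike. The TiO2 effect was lower in roots than in leaves for all 24 members (median -1.22), and for 11446 of all 22746 probe sets (median -0.004). Yet 0 of 24 passed by limma (0.207% of all probe sets did) and 4 of 24 were lower at an unadjusted p under 0.05 (6.57%). Without root TiO2 replicate 2 the members' median was -0.75, with 1 member above 0, and without the 6 narrow arrays 3 members were above 0. The CeO2 effect was higher in roots than in leaves for 22 of 24 (median 1.42), and for 10012 of all 22746 probe sets (median -0.06). Of the members 0 of 24 passed (0.0044% of all) and 7 of 24 were higher at an unadjusted p under 0.05 (2.62%).

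The smallest p for these tissue differences belonged to cemA in both cases, at -1.60 ± 0.57 for the TiO2 effect (limma adjusted p = 0.259) and 1.55 ± 0.57 for the CeO2 effect (adjusted p = 0.792). The median for the CeO2 effect was 0.74 without water root replicate 2, with 19 of 24 higher. In leaves alone, the TiO2 effect was above the CeO2 effect for 17 of 24 members (median 0.70), and for 9723 of all 22746 probe sets (median -0.09). Of the members 0 of 24 passed by limma (0.0176% of all) and 6 of 24 were higher at an unadjusted p under 0.05 (6.89%). These 6 were rpoA, cemA, rpl36, rps2, rpl14 and rpl16, and the median was 0.33 without leaf KCl replicate 1. The smallest p there belonged to rpl14, at 1.83 ± 0.49 (limma adjusted p = 0.320).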

How the data were processed

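Signals of 24 ATH1 arrays were deposited by the authors as log2 values obtained with RMA (background correction, normalization and summary of probes), per the submitters' processing notes; its version and whether tissues were normalized together are not given in the sources used here. The values were used as deposited. The 22746 probe sets entered linear models (lmFit and eBayes of limma 3.58.1, R 4.3.3) with a mean per group, fitted to the 12 arrays of a tissue, or to all 24 for comparisons between tissues. Tests were two-sided, with Benjamini-Hochberg adjustment over all probe sets within each of 12 comparisons and a threshold of 0.05. Tables were read with pandas 2.3.3 in Python 3.11.15 and plots drawn with matplotlib 3.10.9. The fitting was tested on simulated data. The number of arrays limits the precision.

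The members and the lists were chosen with earlier results of these data known. All 24 members are named. For 6 members, chosen by the smallest unadjusted p in any comparison within a tissue, at most 2 per comparison, every array is plotted and part of the values are printed. Among the largest and smallest tissue differences, some members have the range of their levels in a tissue given. Other members with values per array were chosen after their values were seen. Gene names came from the platform annotation and the RefSeq table of TAIR10.1, mitochondrial genes by symbol because their locus tags differ there. Same-numbered arrays of different groups correlated at -0.46 to 0.51 in roots and -0.28 to 0.60 in leaves in their deviations from group means. All 3 same-numbered pairs exceeded 0.1 for KCl and water in roots (0.18 to 0.37) and for CeO2 roots and CeO2 leaves (0.26 to 0.33), and in no other pair of groups tested; no label ties the numbers to a shared batch. Alternatives were a second quantile normalization, median centring, a minimum mean signal of 5, no narrow arrays, only the compared groups, a replicate block and each array left out. For KCl against water in roots, a replicate block in these groups alone was added after seeing the data.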

Additional observations from a re-analysis of the deposited data

How the results depend on the processing

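Counts of members passing stayed at 0 in the 10 comparisons within a tissue or between effects and at 22 or 23 in the 2 tissue comparisons, under every alternative run. Medians over the members kept their sign, except that of TiO2 against KCl in leaves, which crossed 0, between -0.16 and 0.09 with each array left out and at 0.04 without the 6 narrow arrays. The cause was not tested. Leaving out single arrays moved the median for the TiO2 effect in roots minus leaves between -1.42 and -0.75, the value nearest 0 being that without root TiO2 replicate 2. It moved the median for the TiO2 effect minus the CeO2 effect in leaves between 0.33 and 0.80, the lower without leaf KCl replicate 1. With the replicate block, members passing were 0 in the 10 comparisons and 23 in both tissue comparisons, with the same medians, such as 1.92 for KCl against water in roots. Of the arrays, 5 of 12 in roots and 5 of 12 in leaves correlated best with their own number. Same-numbered KCl and water root arrays did deviate together, and a replicate block fitted to these groups alone, chosen after seeing the data, left 0 of 24 members and 0 of all probe sets passing by limma. There 15 members and 1737 of all probe sets were higher at an unadjusted p under 0.05, and rpl20 and rpoC1 had adjusted p = 0.127. The call of rpoC2 was lost in 6 alternatives in particle plants and 8 in control plants, and that of rpl22 in particle plants (-2.68, limma adjusted p = 0.0534) with only the compared groups. A minimum mean signal of 5 left 21 members in roots and 23 in leaves. A fit of only the compared groups is the fit itself for the TiO2 effect minus the CeO2 effect within a tissue. With 3 arrays per group, rpl20 differed by 2.77 between KCl and water roots, at a pooled SD of 0.64 in roots, without passing (limma adjusted p = 0.0572). On the same arrays 0.119% of all probe sets did pass in that comparison. Why no member passed within a tissue was not tested. Dim probe sets such as rpoB limit what can be seen.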

Other observations

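The 7 plastid probe sets that point to several gene copies were kept apart, because their signal cannot be given to 1 copy. In roots of particle plants 6 of 7 fell relative to leaves, with a median of -1.89, and in control plants 6 of 7 fell, with a median of -1.77. In control plants both probe sets of rps12, a small-subunit protein whose message is trans-spliced, fell, with differences of -2.79 ± 0.80 and -1.77 ± 0.61 (limma adjusted p = 0.0104 and 0.0318). rpl23 and rps7, of the large and the small subunit, fell at -2.58 ± 0.41 and -2.33 ± 0.52 (adjusted p = 6.18e-05 and 0.00168), and rpl2 at -1.64 ± 0.31 (adjusted p = 0.000349). ycf1 fell at -1.42 ± 0.53 (limma adjusted p = 0.0444), while ycf2, the longest plastid reading frame, did not pass at -0.24 ± 0.16 (adjusted p = 0.285). The group means of ycf2 were low throughout, from 3.48 in CeO2 roots to 4.09 in KCl leaves. Its probe set thus gives little room to see a difference.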
